A study of Mus musculus with 12 samples.

Results

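The genes described here encode the enzymes of glycolysis, the transporters and regulators that set its rate, and other well-known targets of the hypoxia-inducible factors (HIFs). They were taken from a written list of 39 genes: 17 glycolytic enzymes, 6 genes of transport and control of glycolysis, 14 other hypoxia targets and 2 HIF alpha subunits. For each gene, all probe sets that the array annotation assigns to that gene alone were collected, and the one with the highest mean over the 12 arrays stands for the gene. On this rule 37 of the 39 genes were analysed, and 2 glycolytic enzymes are not analysed here. All 37 passed the filter on low values, among 12306 of 18194 genes on the array.

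Whole-genome Affymetrix arrays (Mouse430_2) were hybridized with RNA of pituitary tumors of pro-opiomelanocortin (POMC) knockout (KO) mice, 2 arrays from homozygous and 8 from heterozygous mice, and of normal mouse pituitary (2 arrays). The tumors arose spontaneously, and no group was treated. The labels give no strain, sex or age for any group. The study's methods name pooled normal pituitary as the reference, so the spread of the normal samples may not be that between animals. The tumor arrays fell in pairs (heterozygous arrays 1 and 2, 3 and 4, 5 and 6, 7 and 8, and homozygous arrays 1 and 2). Within a pair the correlation was 0.997 to 0.998 and at most 4 probe sets differed by over 2-fold, whereas arrays of different heterozygous samples differed by over 2-fold at 434 to 982 probe sets and the 2 normal arrays at 310. Each pair was counted as 1 sample, which left 1 homozygous, 4 heterozygous and 2 normal samples, and the spread of the lone homozygous sample was taken to equal that of the other groups. All values are log2 expression, where 1 unit is a 2-fold difference, and a gene passed the test at a limma adjusted p under 0.05 over all probe sets tested. Nothing in the labels says that the samples are separate animals, so the p-values measure the spread between these samples.

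The samples can be checked against their labels. Pomc, the targeted gene and the defining hormone precursor of corticotroph and melanotroph cells, was at 7.18 in the homozygous sample, 15.1 to 15.3 in the heterozygous samples and 15.1 in both normal samples. Xist, the transcript of the silenced X chromosome of female cells, was at 11.2 in the homozygous sample, at 10.9 and 11.2 in heterozygous samples 3-4 and 7-8, and at 4.58 and 5.0 in heterozygous samples 1-2 and 5-6, against 5.07 and 4.57 in the normal samples. Both normal samples thus read low for Xist while the homozygous and 2 heterozygous samples read high.

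Glycolysis breaks glucose down to pyruvate, and lactate dehydrogenase turns pyruvate into lactate when oxygen is short or growth is fast. When oxygen is plentiful, prolyl hydroxylases mark the HIF alpha subunits for destruction. When it falls, the alpha subunits persist, pair with a beta subunit and bind a short core sequence near their target genes, among them most glycolytic enzymes, glucose and lactate transporters and the hydroxylases themselves. HIF alpha is controlled mainly at the protein level, which these arrays do not measure.

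The HIF core sequence is ACGTG or GCGTG on either strand, and the promoters of the genes that the results turn on are shown for it. In the 250 bases before the transcription start (RefSeq starts on GRCm38.p6), 34 of the 37 genes had a window. ACGTG, on either strand, was found in 21 of these 34 genes (61.8%), against 25.2% of all 9924 tested genes with a window and 18.5% of all 27025 genes with one. By group it was found in 7 of 15 glycolytic enzymes, 4 of 5 genes of transport and control and 9 of 13 other hypoxia targets. It was found in 8 of the 9 genes that were over 2-fold higher in heterozygous tumors, Adm being the exception. Of all genes on the list that passed as higher there, 15 of 22 had it (68.2%). Of those that did not, 6 of 12 with a window had it (50%). With GCGTG counted as well, 31 of 34 genes had a match (91.2%), against 61.6% of tested genes. Many genes on the list are known for such sites, so these shares describe the list. The 250 bases before the start are printed for the 3 genes that were over 2-fold higher in both tumor genotypes (Egln3, Ankrd37 and Ldha) and for Ldhb, the 1 gene that fell. Capitals mark ACGTG, or CACGT where it lies on the opposite strand, and CACGTG holds both.
Egln3, chr12:54203875-54204124, minus strand: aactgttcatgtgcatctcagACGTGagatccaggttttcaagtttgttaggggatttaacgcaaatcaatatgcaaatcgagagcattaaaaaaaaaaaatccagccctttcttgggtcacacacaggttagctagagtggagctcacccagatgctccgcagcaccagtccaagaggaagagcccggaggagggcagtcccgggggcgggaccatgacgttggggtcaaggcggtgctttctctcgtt
Ankrd37, chr8:45999851-46000100, minus strand: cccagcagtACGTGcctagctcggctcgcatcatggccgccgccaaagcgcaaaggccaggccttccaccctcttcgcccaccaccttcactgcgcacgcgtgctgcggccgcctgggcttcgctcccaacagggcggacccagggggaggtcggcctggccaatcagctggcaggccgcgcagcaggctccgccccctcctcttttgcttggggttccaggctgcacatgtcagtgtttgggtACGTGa
Ldha, chr7:46845554-46845803, plus strand: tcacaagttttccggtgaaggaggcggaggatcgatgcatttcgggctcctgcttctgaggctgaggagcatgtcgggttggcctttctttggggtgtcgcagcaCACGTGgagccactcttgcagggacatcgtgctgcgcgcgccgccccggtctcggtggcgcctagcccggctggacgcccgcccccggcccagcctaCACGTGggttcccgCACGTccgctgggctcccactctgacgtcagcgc
Ldhb, chr6:142507958-142508207, minus strand: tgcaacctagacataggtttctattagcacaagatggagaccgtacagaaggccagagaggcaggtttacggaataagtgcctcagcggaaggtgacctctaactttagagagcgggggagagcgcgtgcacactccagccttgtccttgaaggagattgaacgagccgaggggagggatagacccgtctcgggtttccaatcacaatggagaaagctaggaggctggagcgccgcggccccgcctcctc

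Ldha had 5 matches, 4 of them in 2 copies of the palindrome CACGTG at 145 and 48 bases before the start. Ankrd37 had 2, at 241 and 6 bases before it, and Egln3 had 1, at 229. The window of Ldhb had no ACGTG, but like that of Ankrd37 it held GCGTG, which is not capitalized. For 5 other genes that were over 2-fold higher in heterozygous tumors, shorter stretches around the match nearest the start show how close it lay. Adm had no ACGTG match to show, but held GCGTG: with either form counted, 9 of the 9 genes had a match.
Slc16a3, chr11:120949035-120949066, plus strand: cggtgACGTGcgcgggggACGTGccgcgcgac
Car9, chr4:43506990-43507025, plus strand: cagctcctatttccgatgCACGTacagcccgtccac
Pfkfb3, chr2:11553967-11554007, minus strand: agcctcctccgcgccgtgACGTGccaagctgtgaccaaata
Egln1, chr8:124949300-124949340, minus strand: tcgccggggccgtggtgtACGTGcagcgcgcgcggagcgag
Pgk1, chrX:106186951-106186991, plus strand: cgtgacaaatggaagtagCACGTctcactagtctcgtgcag

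Slc16a3 carried matches at 27 and 14 bases before its start, Car9 at 18, Pfkfb3 at 60, Egln1 at 68 and Pgk1 at 150 and 131. Pfkfb3 has 2 starts, and the stretch shown belongs to 1 of them. Before the other, not shown, matches lay at 53 and 52 bases. A match is a run of letters and was not tested as a binding site.

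Most of these genes were higher in heterozygous tumors than in normal pituitary. By the test 22 of the 37 (59.5%) passed the test as higher than in normal pituitary and 1 as lower, while 12.7% of all genes tested passed as higher and 11.5% as lower. The 22 genes were 1.45-fold to 9.31-fold higher. Of these, 9 were over 2-fold higher (24.3%, against 5.57% of all genes), and none was over 2-fold lower (4.5% of all genes). Slc16a3 and Car9, counted among the 22 and the 9, passed the filter on low values only through the heterozygous samples, where they are high. Without them 20 of 35 genes were higher, 7 of them over 2-fold, with a median log2 difference of 0.60. With no filter 22 and 9 of 37 were called, against 8.93% and 3.83% of 18194 genes. In 26 of 37 genes every heterozygous sample lay above both normal samples, against 25.4% of all genes, and in 4 every one lay below, against 25.6%. The median log2 difference was 0.65 over the 37 genes and 0.00 over all genes tested. The counts leaned on both normal samples: 10 genes passed as higher without normal sample 1 and 13 without normal sample 2. In bulk tissue, fewer cells of a type and less RNA per cell cannot be told apart.

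**Figure D1:**
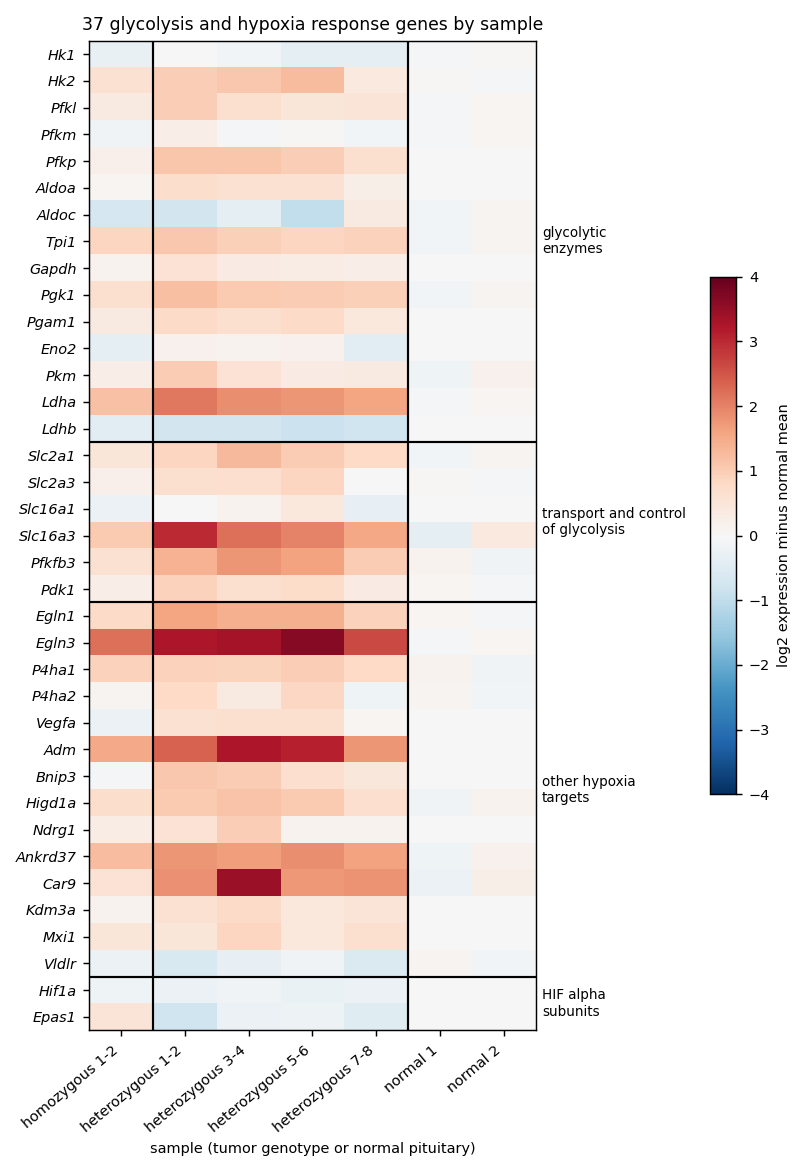
Log2 expression of the 37 genes (rows, in 4 lists) in the homozygous, heterozygous and normal samples (columns), minus the mean of the normal samples. Color runs from blue (lower than normal) to red (higher). Egln3, Adm, Car9, Slc16a3 and Ldha are darkest in the heterozygous samples, and Ldhb is blue in all 5 tumor samples.

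In the homozygous sample 4 genes passed as higher (10.8%, against 1.59% of all genes) and 0 as lower (1.58% of all genes). They were Ldha, Egln3, P4ha1 and Ankrd37, and all but P4ha1 were over 2-fold higher (8.11%, against 1.43% of all genes), with none over 2-fold lower (1.3% of all genes). All 4 were among the 22 of the heterozygous tumors, whose comparison shares the normal samples. Of all genes 1.4% passed as higher in both genotypes and 1.53% as lower, and past 2-fold 1.18% and 1.11%, where the list had 3 and 0. The homozygous sample lay above both normal samples for 27 of 37 genes, against 37.6% of all genes, and below both for 10, against 44.5%. With 1 sample in the genotype these 4 calls rest on spread measured in the others: no gene passed without either normal sample or without heterozygous sample 3-4, 1 passed without heterozygous sample 1-2, and 2 without heterozygous sample 5-6.

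Among the glycolytic enzymes, 8 of 15 rose in heterozygous tumors, 1 fell and 6 did not pass (53.3% higher and 6.67% lower, against 12.7% and 11.5% of all genes), with a median log2 difference of 0.57 (1.49-fold). In the homozygous sample 1 of 15 rose (6.67%, against 1.59% of all genes), and the median was 0.22. Ldha, the lactate dehydrogenase subunit that favors the making of lactate, was the enzyme with the largest difference. It was at 11.13 in the homozygous sample, at 12.09, 11.82, 11.75 and 11.55 in heterozygous samples 1-2, 3-4, 5-6 and 7-8, and at 9.89 and 10.05 in the normal samples. All 5 tumor samples lay more than 1 unit above both normal samples. The log2 difference from normal was 1.16 ± 0.23 (SE) in homozygous tumors (limma adjusted p = 0.0488) and 1.83 ± 0.16 in heterozygous tumors (3.56-fold, adjusted p = 0.000594). Ldhb, the partner subunit that favors the use of lactate, went the other way. It was at 9.05 in the homozygous sample, at 8.77, 8.76, 8.65 and 8.70 in the heterozygous samples and at 9.48 and 9.53 in the normal samples. Its log2 difference was -0.45 ± 0.15 in homozygous tumors (adjusted p = 0.163) and -0.78 ± 0.10 in heterozygous tumors (adjusted p = 0.00244), so that it passed in the heterozygous tumors alone. Every tumor sample lay below both normal samples for Ldhb, and all 4 of its tested probe sets were lower in heterozygous tumors, by 0.68 to 0.83.

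Pgk1, the phosphoglycerate kinase of the ATP-yielding stage of the pathway, was at 12.56 in the homozygous sample, at 13.14, 12.98, 12.94 and 12.87 in the heterozygous samples and at 11.81 and 12.05 in the normal samples. The heterozygous samples lay within 0.3 of one another and about 1 unit above normal (log2 difference 1.05 ± 0.13, 2.08-fold, adjusted p = 0.00188), and the homozygous sample lay between (0.63 ± 0.18, adjusted p = 0.129). Pfkp, the platelet-type subunit of phosphofructokinase, was at 10.16 in the homozygous sample, at 11.07, 11.06, 10.93 and 10.60 in the heterozygous samples and at 9.94 and 9.96 in the normal samples. It rose in heterozygous tumors (0.97 ± 0.16, 1.96-fold, adjusted p = 0.00534), while the homozygous sample was 0.22 ± 0.22 above normal (adjusted p = 0.659). Its 3 probe sets gave 0.69 to 1.58 in heterozygous tumors and did not share a sign in the homozygous sample.

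For several steps 1 isoform passed and another did not. Of the hexokinases, Hk2 rose in heterozygous tumors (log2 difference 0.93, adjusted p = 0.0301), and Hk1 was at -0.22 (adjusted p = 0.304). Of the phosphofructokinase subunits, Pfkl (0.65) and Pfkp rose, and the muscle-type Pfkm was at 0.04 (adjusted p = 0.871). Of the aldolases, Aldoa rose (0.54, adjusted p = 0.0411), and Aldoc was at -0.43 (adjusted p = 0.401), with heterozygous sample 7-8 at 11.58 and the other 3 at 10.24 to 10.81 around normal values of 11.10 and 11.32. Tpi1 (0.95), the triosephosphate isomerase, and Pgam1 (0.65), the phosphoglycerate mutase, also rose. The differences between isoforms were not themselves tested. Gapdh (0.37, adjusted p = 0.078) and Pkm (0.57, adjusted p = 0.0978), the pyruvate kinase, did not pass, although all 4 heterozygous samples lay above both normal samples for each. Eno2, the neuronal enolase, was at 0.01. In the homozygous sample Tpi1 came closest to passing after Ldha (0.85, adjusted p = 0.0514).

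Of the 6 genes of transport and control, 4 rose in heterozygous tumors (3 of 5 without Slc16a3, against 12.7% of all genes), and the median log2 difference was 0.82, or 0.65 without Slc16a3. None of the 6 passed in the homozygous sample, where the median was 0.38. Slc16a3, the exporter that carries lactate out of glycolytic cells, was at 5.53 in the homozygous sample, at 7.44, 6.69, 6.47 and 6.02 in the heterozygous samples and at 4.08 and 4.86 in the normal samples. The heterozygous samples differed widely among themselves but none overlapped normal (log2 difference 2.18 ± 0.38, adjusted p = 0.00942 in the fit with no filter on low values), and the homozygous sample was 1.06 ± 0.55 above normal (adjusted p = 0.364). Slc16a3 passed the filter through the heterozygous samples alone, so its test is given without the filter, and with the filter the call was lost without normal sample 1 (adjusted p = 0.076). Slc16a1, the other lactate transporter on the list, was at 0.05 (adjusted p = 0.88).

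Pfkfb3, which makes the strongest activator of phosphofructokinase, was at 6.36 in the homozygous sample, at 7.15, 7.52, 7.36 and 6.75 in the heterozygous samples and at 5.90 and 5.59 in the normal samples. It rose in heterozygous tumors (1.45 ± 0.22, 2.73-fold, adjusted p = 0.00434) and was 0.62 ± 0.31 above normal in the homozygous sample (adjusted p = 0.352). Slc2a1, the basal glucose transporter, was at 9.63 in the homozygous sample, at 10.02, 10.44, 10.16 and 9.96 in the heterozygous samples and at 9.05 and 9.25 in the normal samples. It rose in heterozygous tumors (0.99 ± 0.16, adjusted p = 0.00541), a call lost without normal sample 1 (adjusted p = 0.0574). The neuronal transporter Slc2a3 was at 0.53 (adjusted p = 0.149), with sample 7-8 at the normal level. Pdk1, a pyruvate dehydrogenase kinase, rose as well (0.65, adjusted p = 0.0337). The normal means of Slc16a3, Car9 and Pfkfb3 lay at or under the median of all values on the arrays (5.74), where differences are measured less well, so the sizes of these 3 are less certain.

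**Figure D2:**
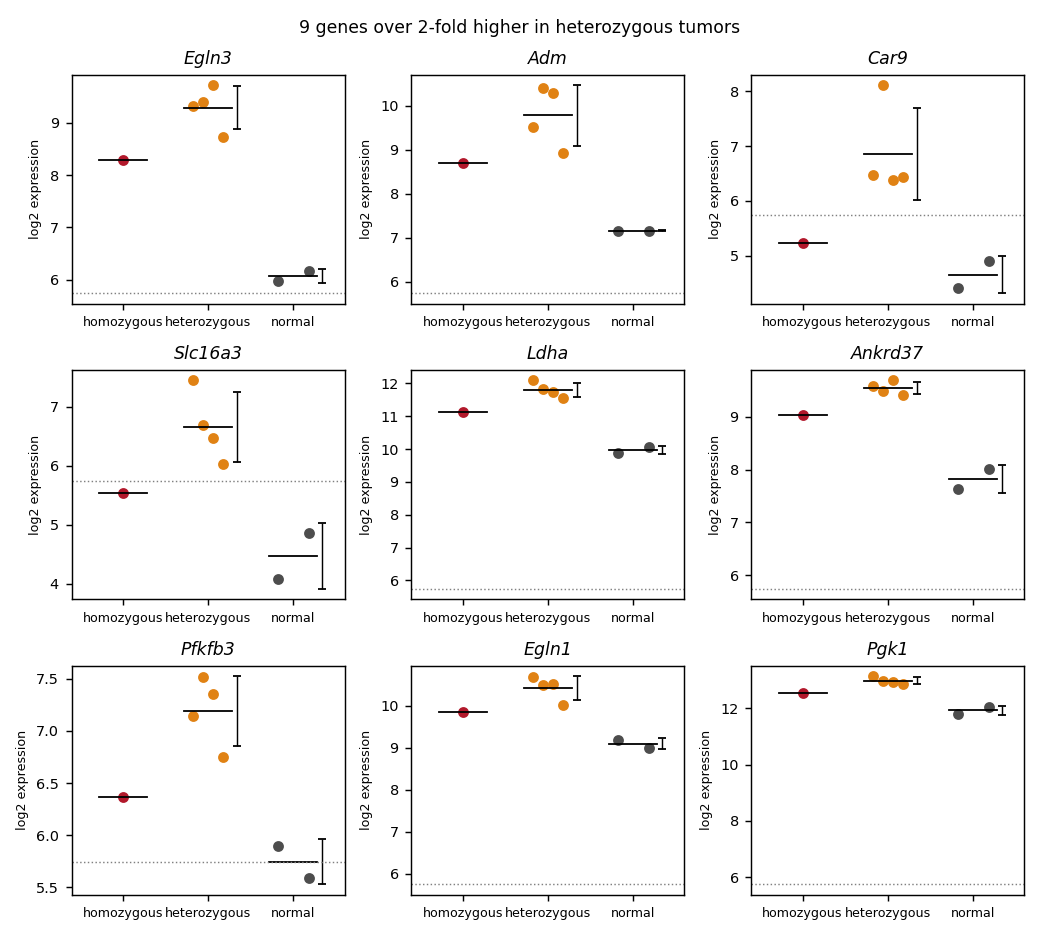
Log2 expression of the 9 genes over 2-fold higher in heterozygous tumors, by group. Points are samples (1 homozygous, 4 heterozygous, 2 normal), lines are means, bars are SD and the dotted line is the median of all values. All 4 heterozygous points lie above both normal points in every panel, and Car9 has 1 heterozygous sample at 8.11.

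Of the 14 other hypoxia targets, 10 rose in heterozygous tumors and none fell (9 of 13 higher without Car9, against 12.7% higher and 11.5% lower of all genes), with a median log2 difference of 0.85, or 0.80 without Car9. In the homozygous sample 3 rose (21.4%, against 1.59% of all genes), and the median was 0.52. Egln3, a prolyl hydroxylase that is itself induced by HIF, had the largest difference of all 37 genes in both genotypes on the probe sets that stand for the genes. It was at 8.28 in the homozygous sample, at 9.31, 9.40, 9.72 and 8.73 in the heterozygous samples and at 5.98 and 6.16 in the normal samples. The homozygous sample lay below all heterozygous samples and over 2 units above normal. The log2 difference was 2.21 ± 0.36 in homozygous tumors (4.63-fold, adjusted p = 0.029) and 3.22 ± 0.25 in heterozygous tumors (9.31-fold, adjusted p = 0.000432). The other tested probe set of Egln3 gave 1.38 for homozygous and 2.20 for heterozygous tumors. Both probe sets of Adm gave more, at 1.52 and 1.60 for homozygous and 2.62 and 2.70 for heterozygous tumors. The size of the Egln3 difference and its first rank thus depended on the probe set. Egln1, the main oxygen-sensing hydroxylase, was at 9.86 in the homozygous sample, at 10.68, 10.50, 10.52 and 10.03 in the heterozygous samples and at 9.18 and 9.0 in the normal samples. It rose in heterozygous tumors (1.34 ± 0.19, 2.53-fold, adjusted p = 0.00314), and was 0.76 ± 0.27 above normal in the homozygous sample (adjusted p = 0.189).

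Adm, the secreted vasodilator peptide adrenomedullin, was at 8.69 in the homozygous sample, at 9.52, 10.40, 10.28 and 8.92 in the heterozygous samples and at 7.16 and 7.17 in the normal samples. Heterozygous samples 3-4 and 5-6 stood highest. The log2 difference was 1.52 ± 0.56 in homozygous tumors (adjusted p = 0.209) and 2.62 ± 0.39 in heterozygous tumors (6.13-fold, adjusted p = 0.00416). Ankrd37, an ankyrin repeat gene known as a HIF target, was at 9.04 in the homozygous sample, at 9.59, 9.50, 9.69 and 9.42 in the heterozygous samples and at 7.63 and 8.01 in the normal samples. It varied little among the heterozygous samples (SD 0.12, n = 4) and rose in homozygous tumors by 1.22 ± 0.20 (adjusted p = 0.0317) and in heterozygous tumors by 1.73 ± 0.14 (3.32-fold, adjusted p = 0.000527).

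Car9, the membrane carbonic anhydrase used as a tissue marker of hypoxia, was at 5.23 in the homozygous sample, at 6.47, 8.11, 6.38 and 6.44 in the heterozygous samples and at 4.41 and 4.89 in the normal samples. Sample 3-4 stood clear of the other 3 heterozygous samples. The log2 difference was 0.58 ± 0.69 in homozygous tumors (adjusted p = 0.716) and 2.20 ± 0.48 in heterozygous tumors (adjusted p = 0.0231 in the fit with no filter, since Car9 too passed the filter through the heterozygous samples alone). Without sample 3-4 the heterozygous difference was 1.78, and with the filter the call was lost without normal sample 1 or 2 (adjusted p = 0.134 and 0.0741).

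The other targets showed smaller differences. P4ha1, a collagen prolyl hydroxylase, was at 10.72 in the homozygous sample, 10.60 to 10.76 in the heterozygous samples and 9.65 to 9.94 in the normal samples. It rose by similar amounts in homozygous (0.93 ± 0.18, adjusted p = 0.0427) and heterozygous tumors (0.89 ± 0.12, adjusted p = 0.00297), with a 95% interval of -0.34 to 0.41 for the difference between the genotypes. Higd1a (0.98), a mitochondrial protein, Bnip3 (0.80), a mitophagy receptor, Mxi1 (0.60), an antagonist of Myc, and the histone demethylase Kdm3a (0.58) rose in heterozygous tumors. Bnip3 stood apart in the homozygous sample, at 10.97, against 11.47 to 12.08 in the heterozygous samples and 10.999 and 11.03 in the normal samples. P4ha2 (0.46), Ndrg1 (0.46), Vegfa (0.50) and Vldlr (-0.42) did not pass in heterozygous tumors (adjusted p = 0.0909 to 0.281). Vegfa, the main angiogenic factor of the hypoxic response, was at 7.35 in the homozygous sample, at 8.22, 8.24, 8.23 and 7.68 in the heterozygous samples and at 7.61 and 7.58 in the normal samples. On this probe set sample 7-8 and the homozygous sample were thus near or under normal. The 2 probe sets of Vegfa did not share a sign in the homozygous sample (log2 differences -0.24 and 0.35).

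Neither HIF alpha transcript on the list, Hif1a or Epas1, passed in either genotype. Hif3a, an alpha subunit outside the list, fell in heterozygous tumors (log2 difference -0.90, limma adjusted p = 0.00244). In the homozygous sample Hif3a was 1.13 below normal. Hif1a was at 10.92 in the homozygous sample, at 10.87, 10.95, 10.82 and 10.85 in the heterozygous samples and at 11.13 and 11.07 in the normal samples. Its log2 difference was -0.18 ± 0.15 in homozygous tumors (adjusted p = 0.565) and -0.23 ± 0.10 in heterozygous tumors (adjusted p = 0.161), and its probe sets did not share a sign. Epas1, which encodes the alpha subunit known from endothelial and kidney cells, was at 10.42 in the homozygous sample, at 9.14, 9.67, 9.72 and 9.44 in the heterozygous samples and at 9.93 and 9.90 in the normal samples. It lay above normal in the homozygous sample (0.50 ± 0.25, adjusted p = 0.347) and below in every heterozygous sample (-0.43 ± 0.18, adjusted p = 0.128). Between the genotypes it had the smallest p of the 37 genes (log2 difference 0.93, 95% interval 0.39 to 1.47, adjusted p = 0.248).

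**Figure D3:**
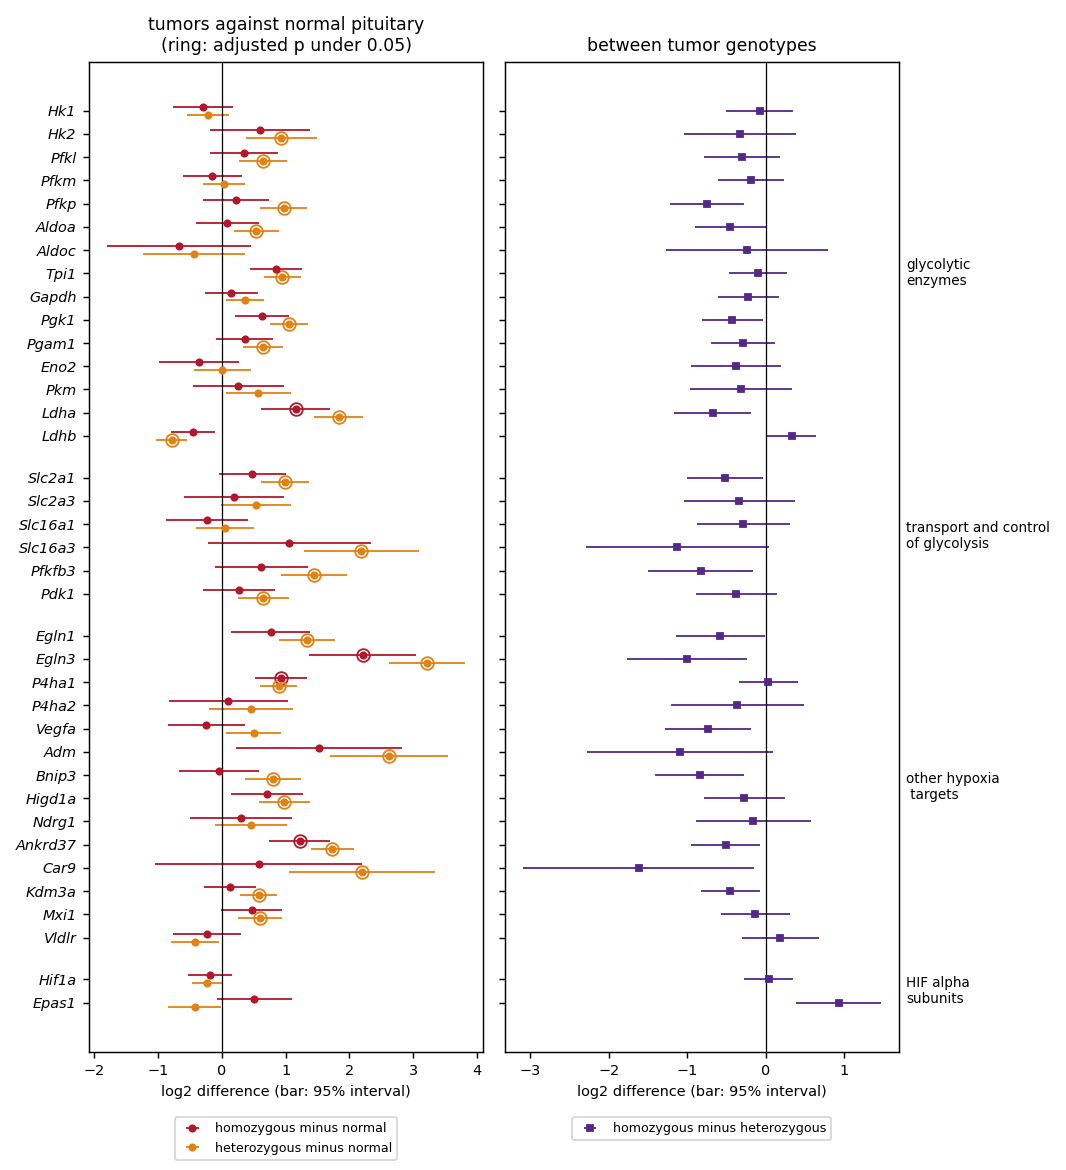
Log2 differences of the 37 genes with 95% intervals from limma, homozygous and heterozygous tumors each minus normal (left) and homozygous minus heterozygous (right), in 4 lists. Rings mark an adjusted p under 0.05, which no gene reached on the right, where 32 of 37 differences are below 0.

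Set side by side, glycolytic enzymes had lower medians than the other hypoxia targets in both tumor genotypes, by 0.31 in homozygous and 0.27 in heterozygous tumors on the log2 scale. Car9, which passed the filter through the heterozygous samples alone, is counted in these gaps and in those by sample. Without it the target median was 0.47 in homozygous and 0.80 in heterozygous tumors, against 0.22 and 0.57 for the enzymes. The gap was present in each tumor sample, at -0.31 in the homozygous sample and at -0.20, -0.38, -0.42 and -0.28 in the heterozygous samples, against -0.04 and 0.04 in the normal samples, which set the zero. Without normal sample 2 the heterozygous gap was -0.12. A difference over 2-fold in heterozygous tumors was reached by 2 of 15 enzymes (Ldha and Pgk1) and 5 of 14 targets (4 of 13 without Car9), against 5.57% of all genes. Near 2-fold this depended on the probe set. The probe sets of Pgk1 gave 0.68 to 1.05, those of Pfkp 0.69 to 1.58 and those of P4ha1 0.89 to 1.37. With probe sets averaged, Pgk1 was at 0.83 and Pfkp at 1.08. No test was made of the gap, because the lists were chosen.

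**Figure D4:**
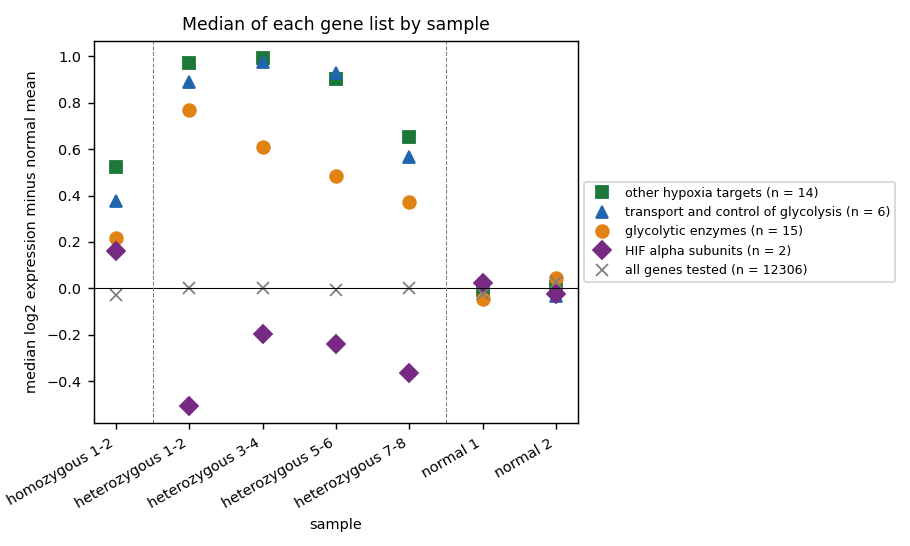
Median over each gene list of log2 expression minus the normal mean, by sample, with all 12306 genes tested as gray crosses. In every tumor sample the other hypoxia targets, Car9 included, lie above the glycolytic enzymes, and heterozygous sample 7-8 is the lowest heterozygous sample for both.

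The heterozygous samples differed in order. Sample 7-8 was the lowest of the 4 for 24 of 37 genes (64.9%), against 27.7% of all genes tested. Among the genes that rose it was lowest for 17 of 22 (77.3%), against 40.8% of all genes that rose in heterozygous tumors. For all 6 genes of transport and control it was the lowest. Sample 1-2 was the highest for 12 of 15 enzymes (27.99% of all genes, 32.67% of all that rose), and sample 3-4 for 7 of 14 other hypoxia targets (20.2% and 33.5%). Sample 7-8 was the highest for 1 gene, Aldoc. Without sample 7-8, 25 genes passed as higher and 13 were over 2-fold higher. The share of all genes in that fit was not counted, so these 2 counts cannot be set against a background.

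Between the tumor genotypes no gene passed (limma, 0 of 37), and 14 had an unadjusted p under 0.05. Of all genes 0.228% passed as higher in homozygous tumors and 0.0488% as lower. With the 12 arrays taken as separate samples 2 passed as higher and 10 as lower. The share of all genes in that setting, or at an unadjusted p under 0.05, was not counted. These counts therefore cannot be set against a background. In 22 of 37 genes the homozygous sample lay below all 4 heterozygous samples, against 26.9% of all genes, and in 2, Ldhb and Epas1, above all 4, against 18.4%. The median difference was -0.34 over the 37 genes and -0.03 over all genes. Intervals were wide: for Car9 the difference was -1.62 (95% interval -3.10 to -0.14), for Slc16a3 -1.12 (-2.29 to 0.04), for Adm -1.09 (-2.28 to 0.10), for Egln3 -1.01 (-1.77 to -0.24) and for Ldha -0.67 (-1.16 to -0.18). Of the 22 genes that rose in heterozygous tumors, the homozygous sample lay between the normal and heterozygous means for 20 (90.9%), against 84.2% of all genes that rose. The exceptions were P4ha1, above the heterozygous mean, and Bnip3, below the normal mean. The homozygous sample covered a median of 56.3% of the heterozygous difference for these 22 genes and 65.4% for all genes that rose.

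Further genes of both pathways were counted in the same way. Of 26 further glycolysis and pyruvate genes tested, 1 rose and 3 fell in heterozygous tumors (3.85% and 11.5%, against 12.7% and 11.5% of all genes, so no more than the background), with a median of -0.02. Pdk4, a pyruvate dehydrogenase kinase induced by fasting, was the 1 past 2-fold, at 5.74 in the homozygous sample, 5.43, 5.86, 4.93 and 5.57 in the heterozygous samples and 7.58 and 7.64 in the normal samples. It fell in homozygous tumors by 1.87 (adjusted p = 0.0377) and in heterozygous tumors by 2.16 (adjusted p = 0.00125), opposite in sign to Pdk1. Of 32 further HIF pathway genes, 8 rose, 5 of them over 2-fold, and 3 fell in heterozygous tumors, with a median of 0.16. These are 25% higher, 15.6% over 2-fold higher and 9.38% lower, against 12.7%, 5.57% and 11.5% of all genes. The heme oxygenase Hmox1 rose most (3.63, adjusted p = 0.00342), followed by the vessel-destabilizing ligand Angpt2 (2.29), the glycoprotein hormone Stc2 (2.02) and the transcriptional repressor Bhlhe40 (1.15). In the homozygous sample Bhlhe40 rose (0.88, adjusted p = 0.0488), and Hif3a, an alpha subunit with inhibitory forms, Ak4 and Wsb1 fell, by 1.13, 1.10 and 1.03.

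Markers of cell types and of proliferation were counted too, and the lists moved in different directions. For scale, 12.7% of all genes passed as higher and 11.5% as lower in heterozygous tumors. In the homozygous sample these shares were 1.59% and 1.58%. All 12 macrophage markers tested rose in heterozygous tumors, with a median of 1.53 and 3 of 12 passing in the homozygous sample. Their summed linear signal was 3788 in the homozygous sample, 5104 to 9384 in the heterozygous samples and 1360 to 1650 in the normal samples, lowest among heterozygous samples in 7-8 and highest in 3-4. Lyz2 was at 10.4 in the homozygous sample, 11.04 to 12.10 in the heterozygous samples and 7.12 to 7.48 in the normal samples. All 9 proliferation markers rose in heterozygous tumors, with a median of 2.35, and 5 of 9 in the homozygous sample. Their summed signal was 7984 in the homozygous sample, 9095 to 13800 in the heterozygous samples and 2851 to 3521 in the normal samples. Among heterozygous samples it was lowest in 5-6 and highest in 1-2, with 7-8 at 13271. Of 9 endothelial markers none rose and 1, Tek, fell in heterozygous tumors (11.1%, no more than the share of all genes). None of these endothelial markers passed in the homozygous sample. Their summed signal was 1393 in the homozygous sample, 889 to 1131 in the heterozygous samples and 1198 to 1207 in the normal samples. Of 7 posterior lobe and glial markers 4 fell in heterozygous tumors, with summed signals of 2008 in the homozygous sample, 1630 to 2294 in the heterozygous samples and 3435 to 3648 in the normal samples. Most of this sum is Glul, which did not pass in heterozygous tumors (log2 difference -0.57, limma adjusted p = 0.0556). Slc1a3 had the largest difference of the 7 there (-3.23). Of 8 fibroblast and pericyte markers 3 fell. Of 12 pituitary endocrine markers 3 rose and 3 fell in heterozygous tumors. The gonadotroph hormone subunit Fshb fell by 5.89 (adjusted p = 0.00511), the other gonadotroph subunit Lhb fell by 4.84 (adjusted p = 0.00127), the thyrotroph subunit Tshb fell by 3.90 (adjusted p = 0.0191), and the melanotroph factor Pax7 rose by 1.48 (adjusted p = 0.00262). Fshb was at 8.75 in the homozygous sample, 5.44 to 9.32 in the heterozygous samples and 12.96 to 13.06 in the normal samples, and Pax7 at 10.4, 10.8 to 11.5, and 9.50 to 9.92 in the same groups. The summed endocrine signal was 112050 in the homozygous sample, 106760 to 142220 in the heterozygous samples and 160860 to 163210 in the normal samples. This sum includes Pomc, the targeted gene, at 7.18 in the homozygous sample and 15.1 to 15.3 in all others. The knockout itself therefore lowers the homozygous sum, which cannot be set against the other samples as a reading of endocrine cells. No marker reads 0 on these arrays. The part of these cell types in the results was not tested.

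RNA quality and scaling were also read from the arrays. The log2 signal of the 3' minus the 5' control set of Gapdh was -0.21 in the homozygous sample, -0.25 to -0.08 in the heterozygous samples and 0.08 and 0.23 in the normal samples, so that the normal RNA read less at the 5' end, while for Actb it was 0.67, 0.57 to 0.77, and 0.72 and 0.93 in the same groups. Its part in the results was not tested. Of 12 housekeeping genes, none of them on the list, 1 rose in heterozygous tumors (Tubb5, 1.0) and none fell. With arrays centred on those genes 20 of the 23 genes that passed in heterozygous tumors still passed in the same direction, Aldoa, Pdk1 and Mxi1 being lost. With Xist as a covariate 22 of the 23 still passed in heterozygous tumors, but 1 of 4 in the homozygous sample, Egln3 alone.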

How the data were processed

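RNA of pituitary tissue was hybridized to 12 Mouse430_2 arrays. The authors made the deposited log2 values by Robust Multichip Average; the labels name Affymetrix Expression Console, and the methods GeneSpring GX. Present calls were not used here. Of 45101 probe sets, 34958 named 1 gene, 932 several and 9211 none; 51 control sets were left out.

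A probe set was tested when 2 or more arrays reached the overall median of 5.74 (24497 sets). The 2 arrays of a pair were averaged, giving 7 samples and 4 residual degrees of freedom. Pairing was inferred from the values: partners differed by over 2-fold at fewer than 10 probe sets. Limma 3.58.1 in R 4.3.3 compared the 3 groups with 1 shared spread and Benjamini-Hochberg adjustment over all sets tested, and the script was tested on simulated data. The study used a one-way ANOVA at the same thresholds (adjusted p under 0.05, over 2-fold), run here as an alternative. The number of arrays limits the precision.

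The genes and lists were chosen with earlier results of these data known. Full values are given for genes past both thresholds and for the 3 largest differences in each list; Ldhb, Bnip3, P4ha1, Vegfa, Hif3a, Ak4 and Wsb1 fall outside this rule, and others are named with their differences to account for every gene. Of the 37 genes 21 had several tested probe sets, which shared a sign in heterozygous tumors for 19, all but Ndrg1 and Hif1a. In the homozygous sample they shared a sign for 16, all but Pfkp, Aldoa, Vegfa, Ndrg1 and Hif1a.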

Additional observations from a re-analysis of the deposited data

Results flagged for a closer look

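Among the 37 genes, the 4 heterozygous samples were searched for a sample far from the other 3, by Dixon's criterion. Chance marks about 1 in 20 such groups. It marked 3 of 37. Car9 was at 8.11 in sample 3-4. Vegfa was at 7.68 and Eno2 at 9.23 in sample 7-8, both below the other 3 samples. No gene differed between the tumor genotypes at an adjusted p under 0.05 in the 7-sample fit.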

How the results depend on the processing

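Of the 13 genes named by rule, Egln3, Adm, Ldha, Ankrd37, Pfkfb3, Egln1, Pgk1 and Pfkp passed as higher in heterozygous tumors under every alternative run. Leaving out 1 sample gave 10 to 25 genes higher in heterozygous tumors (7 to 13 over 2-fold) and 1 to 2 lower. It gave 0 to 5 higher in the homozygous sample (0 to 3 over 2-fold). The gap between enzymes and other targets, Car9 included, was -0.32 to -0.12 in heterozygous tumors, -0.37 to -0.24 in the homozygous sample and 0.14 to 0.23 between the genotypes. These ranges and the counts before them also take in fits that left out 1 of the 2 homozygous arrays. The homozygous sample itself was never left out. No filter and repeated quantile normalization left the counts within 1.5 times. The mean of all probe sets gave 3 genes lower in heterozygous tumors. With Xist as covariate 1 gene was higher in the homozygous sample, also over 2-fold, and its gap was -0.10. With 12 separate arrays 3 genes were lower in heterozygous tumors, 8 higher and 1 lower in the homozygous sample, and 2 higher and 10 lower (1 over 2-fold) between the genotypes. With the pair as a random block 2 were lower in heterozygous tumors and 1, Epas1, higher in homozygous than in heterozygous tumors. The one-way test, which does not say which groups differ, gave 3 lower in heterozygous tumors, 23 higher (5 over 2-fold) and 4 lower in the homozygous sample, and 4 higher and 23 lower (4 over 2-fold) between the genotypes. The separate arrays and the one-way test count partner arrays as independent. The array numbers do not pair the samples (correlations of same-numbered deviations -0.11 to 0.10). With the array number as a replicate block on 12 arrays, 14 genes were over 2-fold higher and 4 lower in heterozygous tumors, 19 higher (5 over 2-fold) and 3 lower in the homozygous sample, and 2 higher (1 over 2-fold) and 25 lower (4 over 2-fold) between the genotypes. The causes were not tested. Slc16a3, Car9 and Pfkfb3 are limited by dim normal signal.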
